A study of Homo sapiens with 2 samples.

Results

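The wide HNRNPC peaks were the 584 peaks of 1000 bp or more in a list of 23111 peaks on human chromosomes 1 to 22, X and Y, so they made up 2.53% of the list. They were chosen by a measured value, the distance between the first and the last base of each peak, and no other value entered the choice. The list came from RNA immunoprecipitation sequencing (RIP-seq) of HNRNPC in A549 cells, a long-established line from a human non-small cell lung cancer, grown without any stated treatment or genetic change. The series has 2 samples, 1 library made from RNA precipitated with 5 µg of antibody against HNRNPC and 1 input library made from the same kind of lysate with no antibody. The peak list belongs to the precipitated library, and no values of the input library were used here. With 1 library in each group there was no replicate check, no p-value is given, and every share below describes this library.

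HNRNPC is a core protein of the nuclear ribonucleoprotein particles that coat newly made transcripts, and it binds runs of U. It is also known as a protein that reads N6-methyladenosine (m6A), since this mark on RNA can open a structured stretch that then exposes a run of U. RIP-seq peaks mark stretches of transcript with more reads in the precipitated RNA than the peak caller's background, and both unspliced and spliced transcripts can carry them.

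Some wide peaks began almost at the first base of an annotated transcript, and the sequences around these starts show where the peak edges fell. Each line below holds 50 bases before and 30 bases from the RefSeq start (build GRCh38.p14), 5′ to 3′ on the strand of the gene, with the bases inside the wide peak in capitals. The first 6 were picked after their values were seen, as starts whose peak edge lay within 12 bp of the annotated first base, in genes of unlike kind. TUG1 gives a nuclear RNA long studied as noncoding, CPEB4 and C6orf62 give messages, ARHGEF11 encodes a guanine nucleotide exchange factor, and PDZD8 encodes a lipid transfer protein of the endoplasmic reticulum.
TUG1, chr22:30969215-30969294, plus strand: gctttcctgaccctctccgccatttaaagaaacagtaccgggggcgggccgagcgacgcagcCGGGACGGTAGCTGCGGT
CPEB4, chr5:173888299-173888378, plus strand: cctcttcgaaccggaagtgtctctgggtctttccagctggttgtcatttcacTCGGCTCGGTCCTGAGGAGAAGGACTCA
PDZD8, chr10:117375411-117375490, minus strand: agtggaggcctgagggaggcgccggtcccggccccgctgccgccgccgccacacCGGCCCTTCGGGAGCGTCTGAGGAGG
EFCAB14, chr1:46719085-46719164, minus strand: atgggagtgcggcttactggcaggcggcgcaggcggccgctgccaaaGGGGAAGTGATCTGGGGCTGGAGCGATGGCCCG
ARHGEF11, chr1:157045713-157045792, minus strand: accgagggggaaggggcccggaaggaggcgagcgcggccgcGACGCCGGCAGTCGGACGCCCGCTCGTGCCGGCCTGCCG
C6orf62, chr6:24720807-24720886, minus strand: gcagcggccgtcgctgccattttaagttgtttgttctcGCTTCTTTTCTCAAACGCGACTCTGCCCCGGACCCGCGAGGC

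A second pair of lines shows starts that lay wholly inside a wide peak, so that every printed base is a capital. The pair was picked, after the values were seen, for a long run of T on the strand of the gene, which reads as a run of U in RNA.
C6orf62, inner start, chr6:24719125-24719204, minus strand: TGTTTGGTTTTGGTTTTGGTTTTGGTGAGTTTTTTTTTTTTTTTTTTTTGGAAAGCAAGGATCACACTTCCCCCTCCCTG
PDE4D, inner start, chr5:59586475-59586554, minus strand: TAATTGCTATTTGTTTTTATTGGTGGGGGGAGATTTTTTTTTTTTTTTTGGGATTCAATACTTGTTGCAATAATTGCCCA

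The longest run of T was 20 bases in the C6orf62 line and 16 bases in the PDE4D line. Over all 10 start windows that lay wholly inside a wide peak of the same gene, the longest run of T had 2 to 20 bases with a median of 5. A run of 5 T (TTTTT) was present in 6 of the 16 windows of 300 bp whose start lay inside a wide peak of the same gene (37.5%), against 8731 of all 35116 windows (24.9%). On the other strand the same run (AAAAA) was present in 4 of those 16 windows (25%) and in 24.5% of all windows. With 16 windows, some of them of the same gene, no difference between the sets is claimed, and a match is not a binding site.

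Read totals do not appear in the deposited list, which leaves the depth behind each peak unknown. The authors' fold enrichment, which sets each summit against the caller's background, and their q describe and rank peaks only within this list. The fold of the wide peaks lay between 1.97 and 24.3 with a median of 7.45, against a median of 6.24 for the 4295 narrower peaks of the same genes and 5.76 for all peaks. Since width and fold come from the same comparison of precipitated RNA with background, nothing is read from that difference. Many folds of the list recurred in even steps of 0.485, and 94 of 584 wide peaks (16.1%) had such a value, against 45.3% of the narrower peaks of the same genes. Among the markers that could check the cell type, 1 of 6 epithelial genes had a peak, which was not wide, and none of the alveolar, blood or fibroblast markers had one. A peak list does not measure expression, so these counts neither bear out nor go against the label.

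Wide peaks held a large share of the sequence under peaks. They covered 1170286 of the 4904592 bp under all peaks (23.9%) and made up 2.53% of the peaks. The rule chose them by width, so a share of bp above the share of peaks follows from it. Their widths ran from 1003 to 11025 bp, with a median of 1564.5 bp and quartiles of 1201.25 and 2261.75 bp, whereas the narrower peaks of the same genes had a median width of 147 bp. The class just above the threshold was the most frequent of 4, with 277 peaks of 1000 to under 1500 bp, 119 up to 2000 bp, 156 up to 4000 bp and 32 of 4000 bp or more. Median fold was 7.20, 7.31, 7.82 and 10.0 in these classes, from the narrowest to the widest.

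At the threshold the values ran on without a break. Just inside it lay UBFD1 with 1003 bp and a fold of 5.70, PDE4D with 1004 bp and 6.73, and DMXL2 with 1004 bp and 7.22. Just outside lay ZXDB with 998 bp and 7.06, UBXN7 with 998 bp and 6.12, and PLEKHA1 with 997 bp and 4.97.

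The widest peak, of 11025 bp with a fold of 11.7, lay at chr10:94601753-94612777 in HELLS, which encodes a chromatin remodeler needed for DNA methylation. ZBTB20, a gene for a zinc finger transcription repressor, held the next, of 10989 bp (fold 11.1), and a further one of 7693 bp (fold 12.1) beside it. CBX5, which encodes heterochromatin protein HP1 alpha, had 9266 bp with a fold of 5.96, and SFT2D2, a gene of vesicle transport, had 9074 bp with 5.25. These last pair show that great width came with folds below as well as above the median of the wide set. AHNAK, which encodes a very large scaffold protein, had 8929 bp with a fold of 9.58. CDK6, the kinase of the G1 phase of the cell cycle, had 8590 bp with 17.4, ITGB1, the integrin beta 1 chain, had 7941 bp with 14.5, and TAOK1, a kinase of the stress response, had 7845 bp with 16.1. The remaining peak of the 10 widest, on chromosome 8, had 7711 bp with a fold of 9.69. It overlapped the span of POMK, but its summit lay 4336 bp outside it.

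The highest folds of the set were spread over the whole range of widths. XPO1, which encodes the export receptor for proteins with a nuclear export signal, had the highest, 24.3, in a peak of only 1021 bp at chr2:61537528-61538548. This peak reached past a RefSeq start of XPO1 but stopped 64 bp inside the 5' end of the gene span. PDE4D, a cAMP phosphodiesterase gene, followed with 23.8 over 5215 bp, and ZNF460 with 20.7 over 6252 bp. LPP, a gene for a focal adhesion protein, had peaks of 19.3 over 5712 bp and 17.1 over 1633 bp. Next came a peak near ERBIN with its summit outside gene spans, with 18.4 over 1068 bp, then C6orf62 with 18.2 over 2236 bp, ADAR, the enzyme that edits adenosine in double-stranded RNA, with 17.7 over 1613 bp, and STAM, an adaptor of endosomal sorting, with 17.4 over 3233 bp. By q the 10 strongest also took in SLC38A2, an amino acid transporter gene with a fold of 16.0 over 2689 bp, and a peak shared by ZBED6 and ZC3H11A with 16.4 over 7386 bp. A fold of 10 or more was reached by 100 of 584 wide peaks (17.1%, 95% exact binomial interval 14.2 to 20.4%), against 15.6% of the narrower peaks of the same genes and 8.65% of all peaks. The rule drew on this same contrast, so the shares are given as they stand.

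**Figure D1:**
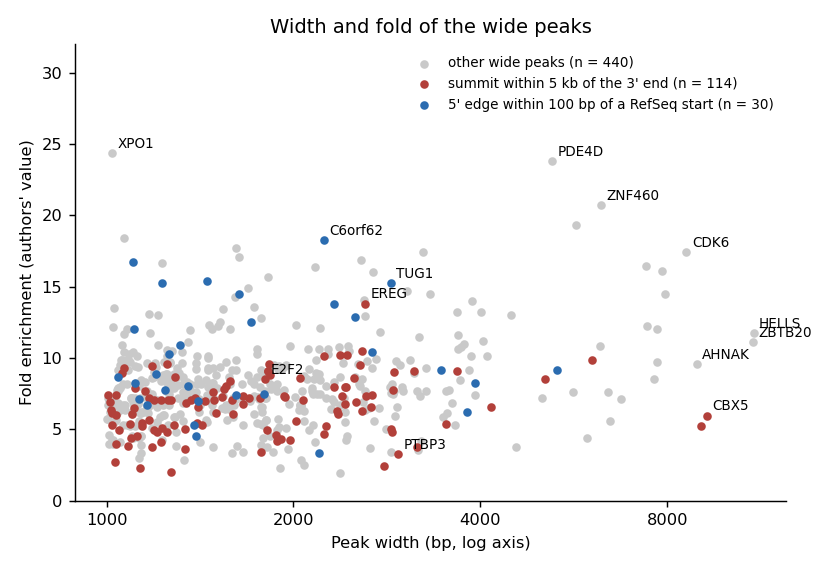
Width in bp on a log axis against the authors' fold enrichment for all 584 wide peaks, 1 point per peak, red for the 114 with a summit within 5 kb of the 3' end of a coding gene of 20 kb or more, blue for the 30 that began within 100 bp of a RefSeq start, and grey for the other 440. XPO1 pairs 1021 bp with a fold of 24.3, whereas CBX5 pairs 9266 bp with 5.96.

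Most wide peaks, like most peaks of the list, lay in a single gene. Of all 23111 peaks, 21359 had another peak in their single gene and 868 were alone in theirs. For the 584 wide peaks these counts were 535 and 10, so placement in a gene was not particular to them. A single protein-coding gene held the summit of 527 (90.2%, in 415 genes), a single lncRNA gene 15 (in 11 genes), a pseudogene 3, and 20 were shared by overlapping genes and counted for none of them. The remaining 19 had their summit outside all gene spans. The reference table gives gene spans only, so exons, introns and untranslated regions were not resolved. Median fold was 7.52 in the coding genes, 7.22 in the lncRNA genes, 6.83 for the shared peaks and 7.16 outside genes.

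Many of the wide peaks outside gene spans still lay beside a gene. Of the 19, 8 overlapped the nearest span with another part and 12 had their summit within 5 kb of it, with a median distance of 2302 bp. For 8 of them the strand of the nearest gene was known, and 7 of these lay beyond its 3' end and 1 before its 5' end. Such counts are not given here for narrower peaks outside genes, and a wider interval overlaps a nearby span more easily. They are therefore not read as a trait of wide peaks. The highest fold, 18.4, belonged to a peak of 1068 bp at chr5:65925769-65926836, 491 bp from ERBIN, the gene of a scaffold protein of epithelial junctions. A peak of 6238 bp with a fold of 10.8 followed the ZNF460 peak directly, and both together spanned 12643 bp.

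Among noncoding genes, NORAD, a cytoplasmic RNA that sequesters PUMILIO proteins, had a single peak of 3811 bp with a fold of 6.20 that was also its only peak. OIP5-AS1 held 2 wide peaks, the wider of 2868 bp with a fold of 3.43. SNHG14, the host transcript of snoRNA clusters, held 2 among 37 peaks, and FTX, a noncoding gene of the X inactivation centre, held 2 among 48. TUG1, which the reference lists as protein coding, had 2868 bp with a fold of 15.3, against folds of at most 7.09 in its 4 narrower peaks. MALAT1, an abundant nuclear RNA named after its values were seen, lay at the other extreme. Its span overlaps that of its antisense gene TALAM1, and without strand the 2 cannot be told apart. Peaks of 2380 bp and 1899 bp there had folds of only 1.97 and 2.32, the lower of them the lowest of the whole set.

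Mature miRNAs lay inside 2 wide peaks, where the reference holds 1774 miRNA genes. The count for narrower peaks is not given here, so 2 is not read as many or few. The sequences of these miRNAs, from RefSeq, are printed with the seed, bases 2 to 8, in capitals, and the seeds are not shared.
hsa-miR-4657, chr7:44881778-44881800, minus strand: aAUGUGGAaguggucugaggcau
hsa-miR-3916, chr1:247202016-247202041, minus strand: aAGAGGAAgaaauggcugguucucag

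The first lay within PURB, which encodes a DNA- and RNA-binding repressor, in a peak of 3481 bp with a fold of 5.87. The second lay in a peak of 1049 bp with a fold of 7.97 whose summit was outside every span, 251 bp from MIR3916. RIP-seq of longer RNA does not count mature miRNAs, so only the position is described.

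Wide peaks fell in 429 genes, which is 12% of the 3588 genes with a peak of their own. A single wide peak was found in 339 of these, 2 in 75, 3 in 8, 4 in 5, 5 in PDE4D and 7 in ASPH. ASPH, which encodes an aspartate hydroxylase of the endoplasmic reticulum, had 66 peaks, and its 7 wide ones had 1013 to 2375 bp and folds of 6.24 to 9.45. PDE4D had 88 peaks, of which 5 were wide. LPP had 4 of 17, the cadherin gene PCDH9 4 of 15, the kinase gene HIPK2 4 of 20, TNRC6B 4 of 14 and the zinc finger gene ZNF217 4 of 11. The 8 genes with 3 wide peaks tied, and those with the most bp in wide peaks completed the 10 named here. They were USF3 with 3 of 13, the Polycomb gene PHC3 with 3 of 19, and ZNF652 with 3 of 11.

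Genes with a wide peak had many peaks but not longer spans. Their median was 9 peaks over a span of 65495 bp, against 3 peaks over 64247 bp in the 3159 genes with narrower peaks only. The share of genes with a wide peak was 1.15% of the 868 genes with 1 peak, 6.16% with 2 to 4 peaks, 16.4% with 5 to 9, 26.7% with 10 to 19 and 29.9% of the 167 genes with 20 or more. Wide peaks count among the peaks of the gene, so this order is a description.

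Within a gene, the wide peak was often but not always the stronger. Of 533 wide peaks in genes that also had narrower ones, 371 (69.6%, 65.5 to 73.5%) had a fold above the median of the gene's narrower peaks, and 154 (28.9%) a fold above all of them. The ratio to that median was 1.23 at its own median, with quartiles of 0.929 and 1.54 and extremes of 0.255 and 5.67. Both values come from the contrast behind the rule. C6orf62 stood at the high end, with 18.2 against a median of 3.21 in 4 narrower peaks. PTBP3, the gene of an RNA-binding protein of pyrimidine-rich sites, stood at the low end, with 3.26 over 2944 bp against a median of 12.8 and a highest value of 25.8 in 15 narrower peaks.

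E2F2, the cell cycle transcription factor that the series names beside HNRNPC, had 1 wide peak among 10. It lay at chr1:23508049-23509846, was 1798 bp wide, and had a fold of 8.53 with 10.8 for −log10 q. Its 9 narrower peaks had folds of 4.25 to 7.75 with a median of 5.29, so the wide peak was the strongest of the gene. Its summit lay 3047 bp from the 3' end of the span and its 3' edge 2837 bp, with the nearest other peak 156 bp away. HNRNPC itself had 1 wide peak among 18, of 1166 bp at chr14:21262642-21263807, with a fold of 6.58 against a median of 5.23 and a highest value of 7.22 in the 17 narrower ones. That peak lay far from the 3' end, with its summit 54145 bp upstream of it.

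Wide peaks lay near, but rarely at, the 3' ends of genes more often than narrower ones did. For coding genes with a span of 20 kb or more and a known strand, 114 of 380 wide summits (30%, 25.4 to 34.9%) lay within 5 kb of the 3' end, against 289 of 3180 narrower summits of the same genes (9.09%, 8.11 to 10.1%) and 7.62% of all peaks. Within 10 kb lay 50.8% of the wide and 18.0% of the narrower summits. With the span cut into 10 equal parts, the last part held 153 wide summits (40.3%), against 18.1% of the narrower ones, and the first part held 11.6% of the wide and 11.4% of the narrower summits. These intervals cover counting error only and ignore that peaks beside each other in a gene depend on one another. Place in the gene did not enter the rule, but no test is made with 1 library.

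**Figure D2:**
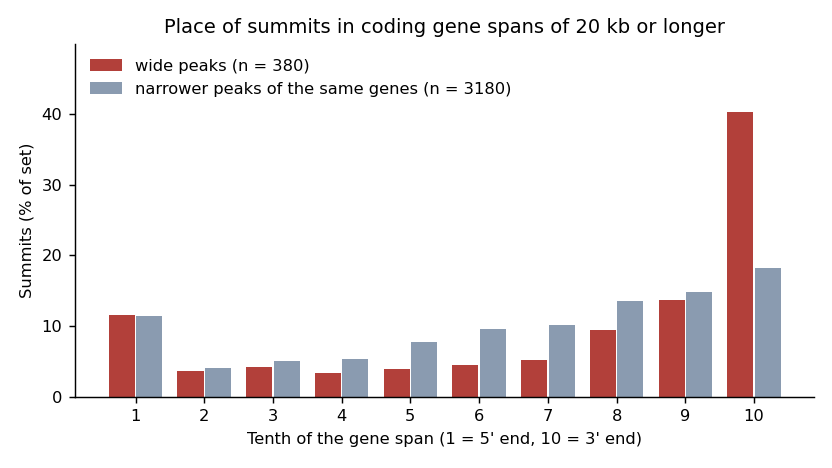
Percent of summits in each of 10 equal parts of the gene span, 5' to 3', for coding genes of 20 kb or more with a known strand, red bars for the 380 wide peaks and blue-grey bars for the 3180 narrower peaks of the same genes. The last part holds 40.3% of the wide and 18.1% of the narrower summits, whereas the first part holds 11.6% and 11.4%.

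Most wide peaks stopped short of the annotated 3' end, as narrower ones did, though the 3' edge came within 1 kb of it for a larger share of the wide ones. A wider interval reaches further from its summit, so the shares by edge in this paragraph depend on width too. By the summit, 2 of 437 wide peaks (0.458%) lay within 1 kb of the end. In all coding genes with a known strand, only 6 of 437 wide peaks (1.37%, 0.505 to 2.96%) had their 3' edge within 1 kb of the 3' end or beyond it, against 5 of 3342 narrower peaks of the same genes (0.150%) and 0.274% of all peaks. Over the next kilobase, from 1 to 2 kb before the end, lay the 3' edges of 89 wide peaks (20.4%, 16.7 to 24.5%), against 81 narrower peaks (2.42%, 1.93 to 3.0%). From 2 to 3 kb before the end the counts were 37 (8.47%) and 99 (2.96%). In steps of 250 bp, no wide peak ended in the last 750 bp of a span, 4 ended between 750 and 1000 bp, and then 17, 20, 35 and 17 ended in the steps up to 2000 bp. Of the 10 widest peaks, 5 ended in the zone from 1 to 2 kb, 1128 bp before the end of the span in HELLS, 1452 bp in SFT2D2, 1512 bp in TAOK1, 1702 bp in CBX5 and 1791 bp in CDK6. The other four with a known strand ended further upstream, 5021 bp and 17201 bp before the end in ZBTB20, 49682 bp in ITGB1 and 90808 bp in AHNAK.

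The 6 peaks that came closer were named after their values were seen. ZNF460 and TCP11L2 held peaks that ran past the annotated end, with distances of -2854 bp and -342 bp, the minus sign marking a position beyond it. The 3' edges of the other four lay 775 bp before the end in ZC3HAV1L, 832 bp in TRAPPC2, 943 bp in C4orf46 and 994 bp in SKIL, the gene of a repressor of SMAD proteins. Narrower peaks of any gene rarely reached the end either. Of 29 that ended within 250 bp of it, 23 lay in histone genes by symbol, whose messages are short.

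**Figure D3:**
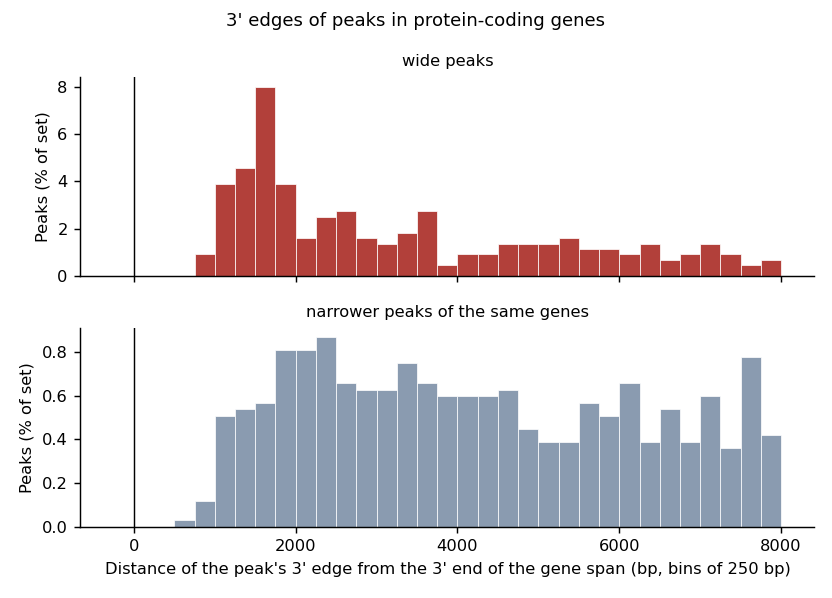
Distance in bp from the 3' edge of each peak to the 3' end of its coding gene span, in bins of 250 bp, as a percent of the set, with 437 wide peaks above and 3342 narrower peaks of the same genes below on a smaller scale, and a black line at the end of the span; edges beyond 8000 bp and the 2 wide peaks that ran past the end are not drawn. Bars of the wide peaks begin at 750 bp, and the highest, just past 1500 bp, holds 35 of them.

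Among the wide peaks, those near the 3' end had lower folds than the others. The 114 with a summit within 5 kb of it lay in 105 genes and had a median fold of 6.90, with 5 (4.39%) at a fold of 10 or more. The other 266 wide peaks in coding genes of 20 kb or more with a known strand had a median of 8.19, and 25.6% reached 10. Of all peaks, 8.65% reached 10. Folds of the narrower peaks near the 3' end are not given here, so this is not read as a trait of wide peaks. The strongest of the 114 lay in EREG, named after its value was seen, which encodes the growth factor epiregulin. It had 2607 bp and a fold of 13.8, against a median of 4.55 in 14 narrower peaks, and its 3' edge lay 1407 bp before the end. Both folds come from the same contrast as the widths.

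**Figure D4:**
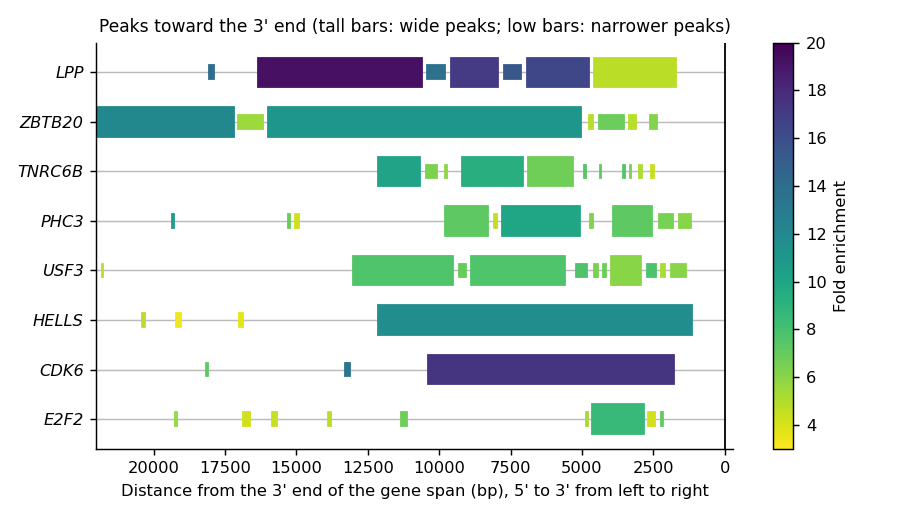
Peaks over the last 22 kb of 8 genes, drawn by distance in bp from the 3' end of the span with 5' to the left, tall bars for wide peaks, low bars for narrower ones, and colour for the fold. LPP shows 4 wide peaks with narrower ones among them, HELLS and CDK6 a single block that stops 1128 and 1791 bp before the end, and E2F2 a wide peak of 1798 bp between small ones.

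At the 5' end the share of wide peaks was near that of the list. Their 5' edge lay within 100 bp of a RefSeq start of the gene in 30 of 450 cases (6.67%, 4.54 to 9.38%), against 6.06% of the narrower peaks of the same genes and 7.21% of all peaks. Within 20 bp of a start lay 17 wide peaks (3.78%), against 2.90% of the narrower ones and 3.24% of all. Of the 30, 25 began at or downstream of it and 5 upstream, and the median position was 15 bp downstream. Median fold was 9.01, and 13 of 30 (43.3%) had a fold of 10 or more, against 17.1% of all wide peaks and 8.65% of all peaks. Folds of the narrower peaks at starts are not given here, so this is not read as a trait of wide peaks. The highest folds, in genes named after their values were seen, were 18.2 in C6orf62, 16.7 in PDZD8, 15.4 in ARHGEF11, 15.3 in EFCAB14 and TUG1, and 14.5 in ECT2, an exchange factor gene needed for cytokinesis. In the printed start sequences the capitals begin 12 bases upstream of the first annotated base in C6orf62, 9 in ARHGEF11 and 3 in EFCAB14, and 2 bases downstream of it in CPEB4, 4 in PDZD8 and 12 in TUG1.

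An annotated start lay inside 13 of 450 wide peaks (2.89%), against 2.09% of the narrower peaks of the same genes, and a wider interval covers more positions. The whole window of 300 bp around a start lay in wide peaks of PDE4D, C6orf62, ECT2, HIF1A, CREBZF, TTC3, NFIB and SMC4. HIF1A, the oxygen-regulated transcription factor gene, had 2259 bp with a fold of 8.02, CREBZF 1970 bp with 6.79, TTC3 2050 bp with 6.73, NFIB 1054 bp with 6.66 and SMC4, a condensin gene, 1394 bp with 4.52. The PDE4D peak of 5215 bp, at chr5:59035006-59040220, covered 1 of the gene's inner starts. It also covered the whole start window of the antisense gene PDE4D-AS1. A second PDE4D peak, of 1315 bp at chr5:59586325-59587639, covered 2 more inner starts, of which the inner start printed above is 1. Start windows of TGFB2-AS1 and CASC2 likewise lay wholly in the wide peaks given to TGFB2 and RAB11FIP2. Without strand, the genes cannot be told apart at such places.

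Wide peaks both at a RefSeq start and near the 3' end of the same gene were found in 4 genes, named after their values were seen. EFCAB14 had 1226 bp at the start with a fold of 15.3 and 1005 bp near the 3' end with 7.44. GSK3B, which encodes a kinase of glycogen and Wnt signalling, had 1110 bp with 8.26 and 3124 bp with 9.13. PDE4D had 1315 bp with 10.9 at an inner start and 3520 bp with 5.36 near the 3' end. The first of these began 934489 bp from the 5' end of the span, so PDE4D did not have wide peaks at both ends. SOX4, a transcription factor gene with a span of 4869 bp, had 1127 bp with 7.11 and 1623 bp with 3.81, and its short span places any peak near both ends.

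Measured from edge to edge, neighbours lay close to wide peaks. From summit to summit, which keeps the width of the peaks in the distance, the median for wide peaks was 1554 bp. That distance is not given here for narrower peaks, so the contrast below holds for edges only. The gap to the next peak of the gene had a median of 329 bp for 535 wide peaks with a neighbour, quartiles of 186 and 1776 bp, against a median of 1039 bp for the narrower peaks of the same genes. A gap of 1000 bp or less was found for 376 of 535 (70.3%, 66.2 to 74.1%), against 48.9% of the narrower peaks of the same genes and 38.5% of all peaks. The lowest gap was 151 bp in each set, and it was met by wide peaks of ZNF286A, RBMS2, PDE4D and ZFHX3. The longest gaps were 209224 bp in PPP1R9A, 98847 bp in TULP4, 91064 bp in GSK3B, 87307 bp in BMPR2 and 71943 bp in LCLAT1. In 10 genes the wide peak was the only peak. The next peak was itself wide for 61 wide peaks (11.4%), against 10.7% of the narrower peaks of the same genes and 2.44% of all peaks.

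Some wide peaks lay near each other in rows, of which those named here were picked after their values were seen. With at most 1000 bp from one wide peak to the next, 55 rows held 114 of the wide peaks (19.5%). Narrower peaks could lie between the wide peaks of a row. Rows of 3 were found at the overlapping genes MRPS6 and SLC5A3 (5565 bp), in the splicing factor gene SREK1 (4798 bp), in RAB27B, a gene of secretory vesicles (4566 bp), and in PCDH9 (4479 bp). In ITGB1 a row of 2 spanned 9495 bp, of which 96.8% lay in the peaks. USF3 had a row of 2 over 7422 bp with a fold of 7.70 in both wide peaks and a narrower peak of 235 bp between them.

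The summit of a wide peak could lie anywhere between its edges. It was in the central part, from one to the next of the 2 points that cut the peak into 3 equal parts, for 195 of 584 wide peaks (33.4%, 29.6 to 37.4%), against 42.7% of the narrower peaks of the same genes and 39.3% of all peaks. With the peak cut into 5 equal parts, the first and last of them together held 42.1% of the wide summits, against 30.1% of the narrower ones. By the strand of the gene, 217 of 450 wide summits (48.2%) lay on the 5' side of the peak's midpoint, against 53.3% of the narrower ones. The summit comes from the same signal as the width, so these shares are a description.

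**Figure D5:**
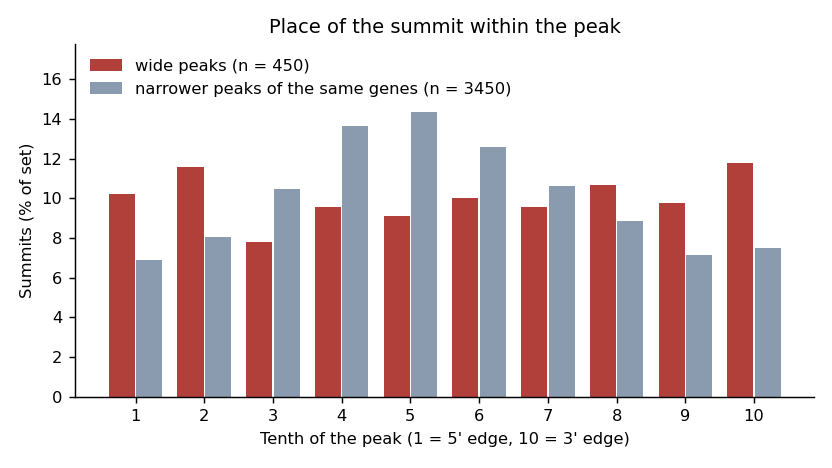
Percent of summits in each of 10 equal parts of the peak, from the 5' to the 3' edge by the strand of the gene, red bars for the 450 wide peaks with a known strand and blue-grey bars for the 3450 narrower peaks of the same genes. The wide bars stay between 7.78% and 11.8%, whereas those of the narrower peaks reach 14.3% just before the middle.

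Gene groups were read against the 12% of genes with a peak of their own that had a wide one. That share ran from 1.15% of genes with 1 peak to 29.9% of genes with 20 or more. The groups were not matched for number of peaks, so a share above or below 12% is not read as a trait of a group. Of the genes of m6A writers, erasers and readers, 16 had a peak and 3 a wide one, namely RBM15, a part of the writer complex, with 5309 bp and a fold of 9.19, YTHDF3, a cytoplasmic reader, with 1457 bp and 8.0, and HNRNPC. Of the hnRNP and other U-rich RNA binders, 12 had a peak and 2, PTBP3 and HNRNPC, a wide one. Of E2F and pocket protein genes, 8 had a peak and E2F2 alone a wide one (12.5%). These counts are too small to set a group apart from the list.

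Among genes altered in lung cancer, ARID2, a chromatin remodeler gene, had 2824 bp and a fold of 5.05, NRAS had 1843 bp and 7.83, and MGA had 2 wide peaks, the wider of 1100 bp and 7.22. Genes of TGF-beta signalling had 5 of 18 (27.8%). SMAD3 had 1874 bp with 4.62, SKIL 1728 bp with 13.6, the ligand gene TGFB2 1710 bp with 12.5, SMAD2 1599 bp with 7.20, and the receptor gene BMPR2 1260 bp with 10.3.

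Genes of miRNA silencing had 3 of 10, which were TNRC6A with 2606 bp and 13.0, AGO2, the slicer, with 2574 bp and 8.54, and TNRC6B, whose widest of 4 had 2259 bp and 7.22. Integrin and focal adhesion genes had 3 of 10, which were ITGB1, TNS3 with 1183 bp and 5.07, and VCL with 1034 bp and 6.51. Chromatin modifier genes had 7 of 36 (19.4%), led by ARID2, by ATRX with 2654 bp and 3.72, by NSD1 with 2514 bp and 8.67, and by KMT2A with 2143 bp and 7.92. Zinc finger genes with a ZNF symbol had 16 of 88 (18.2%), led after ZNF460 by ZNF770 with 3759 bp and 11, ZNF121 with 3669 bp and 9.07, and ZNF652 with 3080 bp and 9.88.

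Among the listed long noncoding RNAs, 5 of 11 with a peak (45.5%) had a wide one, all 5 of which are described above. Receptor tyrosine kinase genes had MET alone of 6 (16.7%), with 1229 bp and a fold that is also 16.7. Giant kinase and ubiquitin ligase genes, all 22 of which had a peak, had 2 with a wide one, RNF213 with 3557 bp and 7.73 and BIRC6 with 1398 bp and 10.1. Nuclear pore and transport genes had 2 of 32 (6.25%), XPO1 and KPNA6, the importin alpha gene, with 1015 bp and 6.39. Cell cycle and replication genes had CDK6 alone of 18 (5.56%), cleavage and polyadenylation genes NUDT21 alone of 10, with 1483 bp and 7.60, and deubiquitinase genes with a USP symbol USP22 alone of 26 (3.85%), with 1133 bp and 2.32. None of the 6 collagen, laminin and matrix genes with a peak had a wide one.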

How the data were processed

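RIP-seq of HNRNPC in A549 cells gave 1 precipitated and 1 input library. The deposited list holds the authors' peaks of the precipitated library, each with a score, a fold (a ratio over the caller's background), and −log10 values of p and q. Per the submitters' processing notes the tools were HISAT2, MACS2 and bedtools and the build was hg38, and their versions, roles and the control used are not given in the sources used here. Coordinates are 1-based. Only peaks of chromosomes 1 to 22 and of X and Y entered (23111 of 23148), and the other 37 lay on other contigs.

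A peak was given to the gene of the RefSeq table of GRCh38 (patch 14) whose span held its summit, coding genes before others, and a peak in several such genes was counted for none. The table has no strand. Strand came from RefSeq start windows (250 bp before to 50 bp after each start), which matched 15842 of 20037 coding genes, so 450 of 545 wide peaks of a single gene, 437 of them in coding genes, could be placed from 5' to 3'. The ends of a span are its outermost annotated bases. Narrower peaks of the same genes were those under 1000 bp in a gene with a wide peak. A gap is the number of bases between neighbouring peaks of a gene. Printed sequences were read from the RefSeq start windows and miRNA table.

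The members, the gene lists and the comparisons were chosen with earlier results of these data known. The rule for named genes took E2F2 and HNRNPC, the 10 widest peaks, the 10 of highest fold and of highest −log10 q, the 10 genes with the most wide peaks, peaks beside the threshold, the 5 shortest and 5 longest gaps, up to 4 members of each of 21 lists by width (5 where a count of 5 or fewer is spelled out), and genes with a whole start window in a wide peak. Shares carry 95% exact Clopper-Pearson intervals, which cover counting error only. Placement was tested on simulated data, where the gene, edge and summit of all 400 peaks were recovered. Alternatives were other widths, a stricter q of 0.001, other distances and other rules of overlap, and those on the 3' edge and the start were added after the data were seen. Planned results that need a genome or exons were not analysed here, and a few named items are not reported here. Scripts ran in Python 3.11.15. They used pandas 2.3.3 and numpy 2.4.6 for tables, scipy 1.17.1 for intervals and matplotlib 3.10.9 for figures.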

Additional observations from a re-analysis of the deposited data

Results flagged for a closer look

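Data outside the chromosomes used also held wide peaks. On the contig GL000195.1, 2 peaks were 1000 bp or wider, 1 of 1122 bp with a fold of 7.22 and 1 of 1197 bp with a fold of 4.44. They are not among the 584, their genes were not looked up, and the input library was not analysed.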

How the results depend on the processing

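No paired analysis was possible because each group has 1 library. Among the alternative values, 22 stayed within 1.5 times a count or within the 95% interval of a share or median, and 14 did not. That interval was 7.23 to 7.70 for the median fold and 266 to 396 bp for the median gap. Counts moved with the width: 1544 peaks in 880 genes were 500 bp or wider, and 188 in 159 genes were 2000 bp or wider, with median folds of 6.93 and 8.01. The share of summits within 5 kb of the 3' end became 6.58% at 2 kb and 50.8% at 10 kb, both by construction. The central share became 49.7% when the central part took 50% of the peak. The median gap became 420 bp with q of 0.001 or less and 1554 bp from summit to summit. The share ending within 1 kb of the 3' end became 0.458% by the summit. The share starting within 100 bp of a RefSeq start became 9.69% at 500 bp or wider, and 2.89% had the start inside the peak. The cause was not tested where the construction does not show it. Depth is unknown, and how widths depend on it was not tested. Strand was known for 450 of 545 wide peaks of a single gene, and no value has a replicate.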

Other observations

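Chromosomes differed in the share of their peaks that were wide. It was highest on chromosome 22, with 15 of 219 peaks (6.85%, 95% exact interval 3.88 to 11%), and on chromosome 19, with 17 of 358 (4.75%, 2.79 to 7.49%). It was lowest on chromosome 2, with 28 of 1950 (1.44%, 0.956 to 2.07%), and on X, with 14 of 837 (1.67%). Several wide peaks of a gene share a chromosome and are not independent, and the ranking was made after the values were seen.

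Further noncoding genes, chosen after their values were seen, held wide peaks. MIR31HG had peaks of 2603 bp with a fold of 7.70 and 1657 bp with 5.27. SNHG17, a snoRNA host gene, had 2411 bp with 7.22 as its only peak, and ZFAS1 had 2698 bp with 5.57. PURPL, a p53-regulated noncoding gene, had 1599 bp with 5.85.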
